A study of Mus musculus with 30 samples.

Results

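Markers of the cells that build brain vessels were followed in the hippocampi of phenytoin-resistant and phenytoin-responding mice. The 42 genes comprise 27 that mark endothelial cells and 15 that mark mural cells, the pericytes and smooth muscle cells that wrap the endothelial tube. They were chosen by name as markers of these cell types, with earlier results of these data known. Probes carried the symbols of 38 of the 42 genes, and 28 genes (19 endothelial and 9 mural, 36 probes) were detected on at least 15 of the 30 arrays. The whole table held 8841 such genes on 12588 probes.

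The animals were 30 male mice of the NMRI stock, aged 12 weeks, whose seizures were evoked by 6 Hz electrical stimulation to score the response to phenytoin, a sodium channel blocker given against seizures. Phenytoin failed in the 15 resistant mice and worked in the 15 responders. Both groups therefore share the stimulation, no unstimulated animals are analysed here, and any effect of the seizures themselves cannot be told apart from drug resistance. RNA of the whole hippocampus from each mouse was read on 1 Illumina bead array, on which 12330 to 13223 probes were detected.

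Endothelial cells of brain capillaries are sealed by tight junctions and carry glucose, amino acids and lipids through dedicated transporters, which together form the blood-brain barrier. Endothelial PDGF-B recruits pericytes through their receptor Pdgfrb, and pericytes in turn keep transport through vesicles low. Smooth muscle cells encircle arterioles and contract through actin and myosin to set blood flow.

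The arrays read the defining markers only in part. Pecam1, an adhesion protein at endothelial contacts, was detected on 15 of 15 resistant and 15 of 15 responder arrays, and Pdgfrb on 14 of 15 resistant and 14 of 15 responder arrays. No probe carried the symbol of Cldn5, the main tight junction claudin of brain endothelium, nor those of Ly6a, Myl9 and Mcam2. Another 10 genes were detected on fewer than 15 arrays and were not tested. Among them, the junction cadherin Cdh5 was detected on 3 arrays, the VEGF receptor Kdr on 8, the tight junction protein Ocln on 12 and the smooth muscle genes Tagln and Cnn1 on 1 and 0. The others were Tie1 on 3 arrays, Anpep on 3, Bsg on at most 6, Erg on at most 2 and Ifitm1 on at most 1. Detection also differed between probes of the same gene, as Flt1 and Itm2a each had 1 probe detected on 30 arrays and 1 on 0. Whether the undetected genes are absent from the tissue was not tested. In whole tissue, fewer cells of a type and less RNA per cell cannot be told apart.

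Before the groups are compared, 3 mice need naming. Resistant mouse 9 and responder mice 4 and 15 had the highest signals of Acta2, smooth muscle actin, at 11.14, 10.76 and 11.35 on the log2 scale, and the next highest of the 30 mice had 10.30. The same 3 mice also had the 3 highest means of 17 fibroblast marker genes, at 8.56, 8.75 and 8.92. The correlations that involve Acta2 or the fibroblast mean are given with and without them, as are the group differences past an unadjusted p of 0.05, a choice made after the values were seen.

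No vascular marker differed between the groups after adjustment over all 12588 probes by limma with the Benjamini-Hochberg method, where 0.00794% of all probes (1) passed. The smallest adjusted p among the 36 member probes was 0.550. At an unadjusted p under 0.05, 1 of the 28 genes was higher in resistant mice, the lipid transporter Mfsd2a, against 4.48% of all 8841 genes. In the other direction 3 of the 28 were lower, Emcn, Pltp and Des, against 3.13% of all genes. In linear signal, resistant over responder, Mfsd2a was at 1.11 and the other genes at 0.839 to 0.901, and every probe's range in resistant mice overlapped its range in responders. Without the 3 mice, 1 gene was higher (Mfsd2a, 0.13, p = 0.0319) and 2 were lower (Emcn, -0.15, p = 0.0278, and Vwf, -0.43, p = 0.0444).

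The markers showed no common shift in either direction. Of the 19 endothelial genes, 10 were nominally higher and 9 lower in resistant mice, with a median log2 difference of 0.00036, which changed sign among the alternative settings (-0.014 to 0.039). Of the 9 mural genes, 5 were higher and 4 lower, with a median of 0.0093 (-0.023 to 0.073 among those settings), while the median of all genes was 0.0084. The mean log2 signal over the endothelial genes was 8.42 ± 0.12 in resistant mice and 8.45 ± 0.12 in responders (SD, n = 15 each). Over the mural genes it was 6.94 ± 0.21 in resistant mice and 6.93 ± 0.23 in responders (SD, n = 15 each). Both differences lie within the spread between mice.

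**Figure D1:**
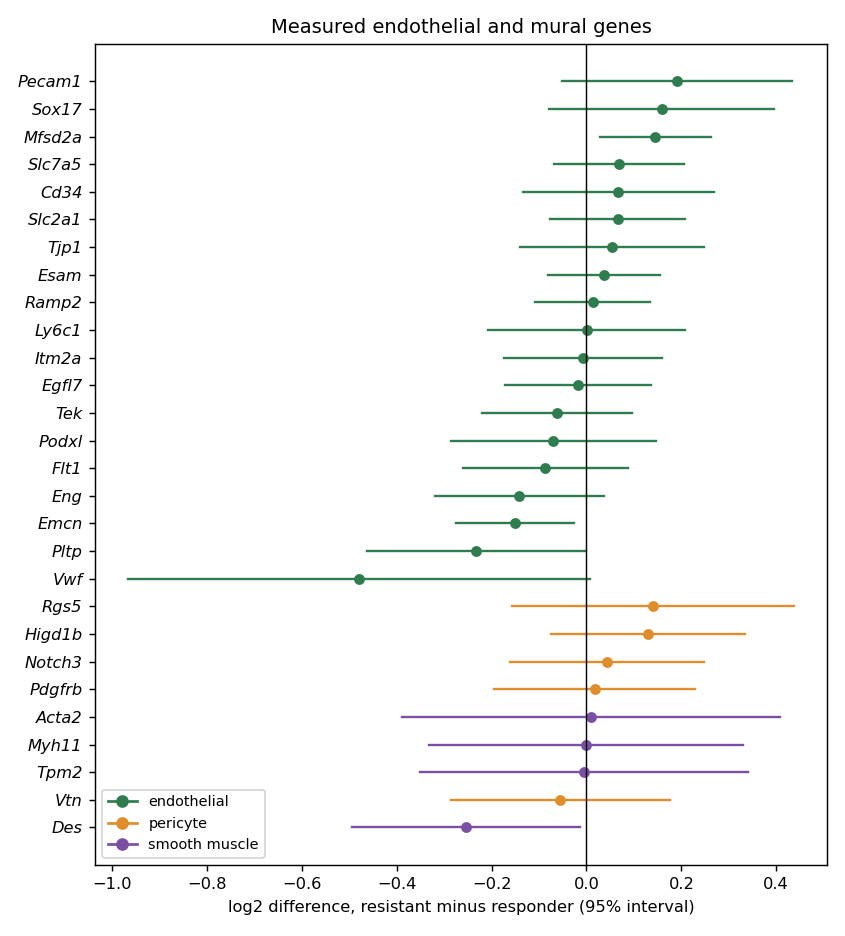
Log2 difference of each of the 28 detected marker genes, resistant minus responder, with its 95% interval (brightest kept probe per gene, n = 15 mice each). The intervals of Mfsd2a (0.03 to 0.26), Emcn (-0.27 to -0.03), Pltp and Des (-0.50 to -0.01) leave out 0, and Vwf has the lowest point estimate at -0.48.

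Among the transporters, Mfsd2a carries lysophospholipids with docosahexaenoic acid across the barrier and keeps vesicle transport in endothelium low. Its log2 signal had a lowest value of 9.04, a median of 9.57 and a highest value of 9.87 in resistant mice, against 9.12, 9.44 and 9.62 in responders. The ranges overlapped, and 14 of the 15 resistant mice lay above the responder median. The means were 9.59 ± 0.19 in resistant mice and 9.44 ± 0.12 in responders (SD, n = 15 each), a 1.11-fold difference in linear signal (log2 difference 0.15, SE 0.06, unadjusted p = 0.0170, limma adjusted p = 0.577).

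The other barrier carriers did not pass the unadjusted threshold. Slc2a1, the glucose transporter GLUT1, differed by 0.066 (95% interval -0.08 to 0.21), and Slc7a5, which takes up large neutral amino acids, by 0.068 (95% interval -0.07 to 0.20). Both intervals leave out a difference of 0.3 in either direction on the log2 scale.

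Pltp moves phospholipids between lipoproteins, and both of its probes were lower in resistant mice. The brighter probe had a lowest value of 9.39, a median of 9.95 and a highest value of 10.52 in resistant mice, against 9.59, 10.07 and 10.78 in responders. Only 3 resistant mice lay above the responder median. The log2 difference was -0.23 (SE 0.11, p = 0.0466, limma adjusted p = 0.657), and that of the dimmer probe was -0.25 (SE 0.10, p = 0.0125, limma adjusted p = 0.550). Without the 3 mice of highest Acta2 they were -0.22 (p = 0.0727) and -0.24 (p = 0.0317).

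Pltp moved from mouse to mouse with genes of the choroid plexus, the secretory epithelium that lies beside the hippocampus. All 14 detected choroid plexus markers of 20 listed were lower in resistant mice, none at an unadjusted p under 0.05, against 3990 of all 8841 genes lower. Their mean ranged from 5.41 to 9.54 in resistant mice (SD 1.36) and from 5.81 to 10.2 in responders (SD 1.76). With a mean that varies this widely, the 14 are not counted as separate results. With the group means removed, Pltp correlated with this mean over the 30 mice (Pearson r = 0.746, permutation p = 1e-05, the smallest that 100000 resamples give, and Spearman rho = 0.791). It was r = 0.645 within resistant and r = 0.820 within responder mice, 0.702 without the 2 mice farthest from the median, and 0.791 without the 3 mice of highest Acta2. With the choroid plexus mean as a covariate the brighter probe differed by -0.11 (p = 0.192) and the dimmer by -0.18 (p = 0.0467).

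**Figure D2:**
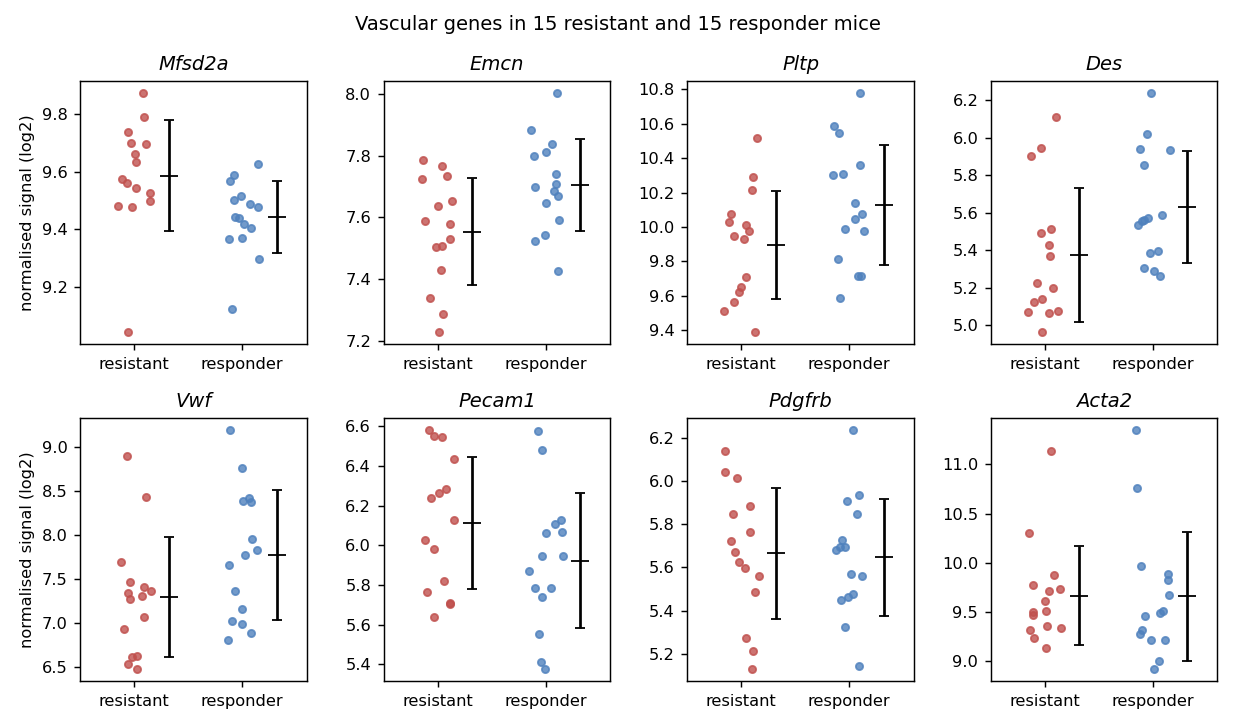
Normalised log2 signal per mouse of Mfsd2a, Emcn, Pltp, Des, Vwf, Pecam1, Pdgfrb and Acta2, with resistant mice left of responders and the mean ± SD of 15 mice drawn beside the points. The groups overlap for every gene, and the 3 mice of highest Acta2 (11.14 in a resistant mouse, 10.76 and 11.35 in responders) stand above the rest.

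Surface and adhesion proteins of endothelium gave values on both sides of 0. Emcn, a sialomucin of capillary and venous endothelium, had a lowest value of 7.23, a median of 7.58 and a highest value of 7.79 in resistant mice, against 7.43, 7.70 and 8.00 in responders. Only 4 resistant mice lay above the responder median. The log2 difference was -0.15 (SE 0.06, p = 0.0186, limma adjusted p = 0.592), or 0.901 of the responder signal.

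Vwf, the platelet-binding protein that endothelium stores and secretes, varied most between mice of all 28 genes. Its log2 signal had a lowest value of 6.47, a median of 7.31 and a highest value of 8.90 in resistant mice, against 6.80, 7.77 and 9.20 in responders. Of the 15 resistant mice, 4 lay below the lowest responder and 2 lay above the responder median. The log2 difference was -0.48 (SE 0.24, 95% interval -0.97 to 0.01, p = 0.0535, limma adjusted p = 0.675), with a pooled SD of 0.710 against a median SD of 0.191 over all genes. Without the 3 mice named above it was -0.43 (p = 0.0444).

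Pecam1 was read by 2 probes, both nominally higher in resistant mice. The brighter had a lowest value of 5.64, a median of 6.13 and a highest value of 6.58 in resistant mice, against 5.38, 5.94 and 6.58 in responders. The log2 difference was 0.19 (SE 0.12, p = 0.121, limma adjusted p = 0.753) by that probe and 0.15 (SE 0.10, p = 0.168) by the other. Across mice the values of the 2 probes were nearly unrelated (r = 0.0819 over 30 mice).

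The remaining endothelial surface genes had differences close to 0. They were 0.067 for the sialomucin Cd34, 0.054 for the junction scaffold Tjp1, 0.036 for the junction adhesion molecule Esam, 0.00036 for the surface antigen Ly6c1, -0.0073 for the membrane protein Itm2a and -0.070 for the sialomucin Podxl. The unadjusted p was above 0.05 for each of them.

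Receptors of endothelium did not separate the groups. Eng, a co-receptor for TGF-beta ligands, had a median of 7.00 in resistant and 7.07 in responder mice, with a log2 difference of -0.14 (SE 0.09, p = 0.117, limma adjusted p = 0.751). Flt1, a VEGF receptor, had a lowest value of 9.12, a median of 9.68 and a highest value of 10.00 in resistant mice, against 9.37, 9.74 and 9.93 in responders (log2 difference -0.09, SE 0.09, p = 0.319). Tek, the receptor of the angiopoietins, differed by -0.062 (p = 0.434), and Ramp2, a partner of the adrenomedullin receptor, by 0.013. The 3 probes of the secreted protein Egfl7 differed by -0.018, 0.0067 and 0.17 and did not rise and fall together across mice, with r between -0.26 and 0.13. The probe that gave 0.17 was dim, detected on 13 resistant and 9 responder arrays.

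Sox17, a transcription factor of arterial endothelium, was near the limit of detection, on 12 resistant and 8 responder arrays. Its lowest value was 5.15, its median 5.56 and its highest value 6.03 in resistant mice, against 4.87, 5.20 and 6.11 in responders (log2 difference 0.16, SE 0.12, p = 0.182, limma adjusted p = 0.807).

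None of the 5 detected pericyte genes passed the unadjusted threshold. Pdgfrb had a lowest value of 5.13, a median of 5.67 and a highest value of 6.14 in resistant mice, against 5.14, 5.68 and 6.24 in responders. The difference was 0.017 with a 95% interval from -0.20 to 0.23 (SE 0.10, p = 0.872, limma adjusted p = 0.987). Rgs5, which damps G-protein signalling in pericytes, had a lowest value of 7.41, a median of 8.28 and a highest value of 9.02 in resistant mice, against 7.39, 8.22 and 8.87 in responders (log2 difference 0.14, SE 0.15, p = 0.346). Higd1b differed by 0.13 (SE 0.10, p = 0.206), with medians of 6.23 in resistant and 6.19 in responder mice. Notch3, the Notch receptor of mural cells, differed by 0.043 (SE 0.10, p = 0.669), with a median of 5.58 in both groups.

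Vtn, the adhesive glycoprotein vitronectin that brain pericytes secrete, had a lowest value of 9.82, a median of 10.19 and a highest value of 11.11 in resistant mice, against 9.71, 10.18 and 11.10 in responders (log2 difference -0.06, p = 0.631). The 3 mice with the highest Acta2 also held the 3 highest Vtn values, 11.11, 10.87 and 11.10, with 10.47 the highest of the other 27.

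With the choroid plexus mean as a covariate, no gene of the 28 passed an unadjusted p under 0.05. Mfsd2a then differed by 0.11 (p = 0.0513), Emcn by -0.11 (p = 0.0608), Des by -0.24 (p = 0.0641) and Vwf by -0.43 (p = 0.09). Across mice, Emcn correlated with the choroid plexus mean at r = 0.442 (permutation p = 0.0149) and Mfsd2a at r = -0.365 (permutation p = 0.0363). Neither passed adjustment over the 56 relations computed between the 28 genes and the choroid plexus or fibroblast mean. The part of choroid plexus tissue in these differences was not tested beyond this.

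Of the 4 detected smooth muscle genes, Acta2, Myh11 and Tpm2 differed by less than 0.01 on the log2 scale between group means of their brightest probes and varied widely between mice, while Des was lower in resistant mice at the unadjusted threshold. Acta2 had a lowest value of 9.13, a median of 9.51 and a highest value of 11.14 in resistant mice, against 8.92, 9.49 and 11.35 in responders. The difference was 0.0093 (SE 0.20, 95% interval -0.39 to 0.41, p = 0.962, limma adjusted p = 0.995), and its other 3 probes gave -0.16, -0.06 and -0.11. Myh11, the smooth muscle myosin heavy chain, had a lowest value of 4.63, a median of 5.37 and a highest value of 6.40 in resistant mice, against 4.57, 5.29 and 6.66 in responders (log2 difference -0.0013, SE 0.16, p = 0.994). It was dim, detected on 9 of 15 resistant and 9 of 15 responder arrays. Tpm2, a tropomyosin that lies along actin filaments, averaged 6.06 ± 0.46 in resistant mice and 6.06 ± 0.53 in responders (SD, n = 15 each). Pooled within groups, the SD of Acta2 was 0.582, whereas 3.19% of all genes had an SD over 0.5.

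Des, the intermediate filament protein desmin, had a lowest value of 4.96, a median of 5.23 and a highest value of 6.11 in resistant mice, against 5.27, 5.56 and 6.24 in responders. It was dim, detected on 9 resistant and 14 responder arrays, and 3 resistant mice lay above the responder median. The log2 difference was -0.25 (SE 0.12, 95% interval -0.50 to -0.01, p = 0.0392, limma adjusted p = 0.652), and -0.22 (p = 0.0572) without the 3 mice of highest Acta2. Des did not follow the choroid plexus mean (r = 0.104 over 30 mice).

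Acta2, Myh11 and Tpm2, each read by its brightest probe, rose and fell together across mice. With group means removed, Acta2 and Myh11 correlated at r = 0.811 over the 30 mice (permutation p = 1e-05, adjusted 5e-05 over the 5 pairs computed) and rho = 0.629 (p = 0.00043, adjusted 0.00215). The correlation was 0.712 within resistant and 0.874 within responder mice, and the difference between these did not pass a permutation test (p = 0.438). It was 0.596 without the 2 mice farthest from the Acta2 median and 0.463 (p = 0.0176, adjusted 0.0439) without the 3 mice of highest Acta2, so its size depends on those mice. Myh11 was detected on 18 of the 30 arrays, so signal near background limits the precision of each of its correlations.

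Acta2, Tpm2, Myh11 and the pericyte gene Vtn formed a tight set, with 6 pairwise correlations from 0.718 to 0.891. They ran from 0.537 to 0.879 within resistant and from 0.845 to 0.943 within responder mice. Without the 3 mice they ran from 0.329 to 0.711 over the other 27. The set is not closed to endothelial genes, as Vwf correlated with Acta2, Vtn and Myh11 at 0.718, 0.755 and 0.775. With Tpm2 it correlated at 0.579. Without the 3 mice these 4 values were 0.477, 0.557, 0.600 and 0.243. These values are a description over 30 mice that share no array, and the set was picked after they were seen. Tpm2 belongs to the set by its brightest probe only. Its other kept probe, detected on all 30 arrays, was nearly unrelated to that one (r = 0.047 over 30 mice). The correlation of this dimmer probe with Acta2 was 0.170.

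**Figure D3:**
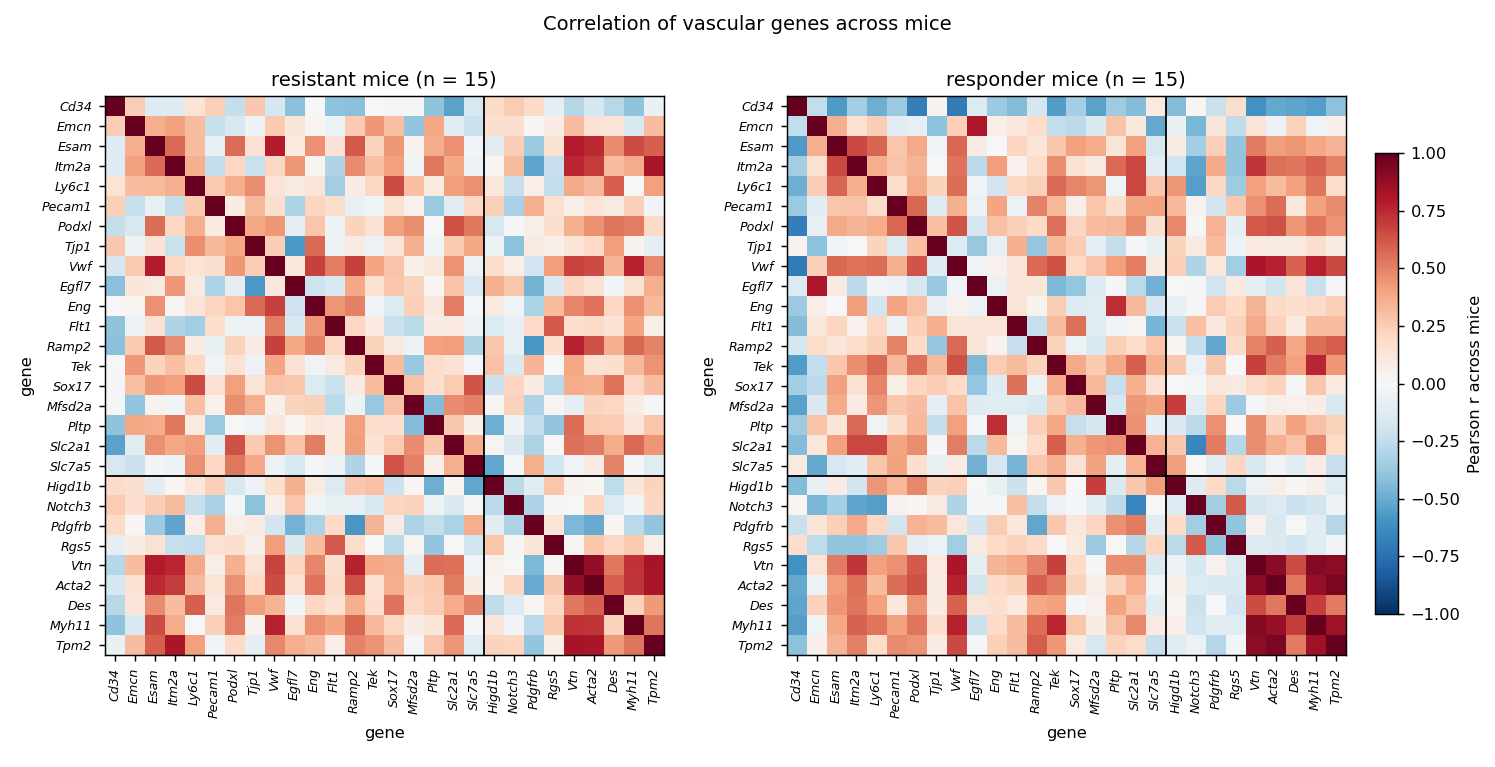
Pearson correlation between each pair of the 28 genes (brightest kept probe per gene), across 15 resistant mice (left panel) and 15 responder mice (right panel). Lines separate the endothelial and mural genes. Acta2, Tpm2, Myh11 and Vtn stand out in both panels, with r from 0.537 to 0.879 in resistant and from 0.845 to 0.943 in responder mice.

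Acta2 is a textbook target of serum response factor, which binds the CArG box of smooth muscle promoters with its partner myocardin. The promoter is shown because Acta2 leads the set above. It lies at chr19:34255374-34255623 on the minus strand of GRCm38.p6, from RefSeq, and ends at the base before the start site used for it. The gene is annotated at chr19:34240336-34255585, so the window overlaps it and that site is not its outermost start. The capitals mark 2 matches to a CArG box in which 1 of the 6 central bases may be G or C.
Acta2: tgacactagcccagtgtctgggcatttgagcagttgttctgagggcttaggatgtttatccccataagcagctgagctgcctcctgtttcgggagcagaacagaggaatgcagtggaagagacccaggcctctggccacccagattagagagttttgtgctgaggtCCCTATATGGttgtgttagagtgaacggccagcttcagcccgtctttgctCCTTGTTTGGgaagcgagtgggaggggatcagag

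The matches CCCTATATGG and CCTTGTTTGG start 84 and 34 bases before that start site. The looser box, searched on both strands, is held by the promoters of 11.3% of 27025 genes, and the strict box, with only A or T in the centre, by 1.81%. Among the smooth muscle genes 2 of 5 with a promoter sequence held the looser box (Acta2 and Myl9), among the pericyte genes 0 of 5 and among the endothelial genes 5 of 17. The strict box was absent from the Acta2 window and present in that of Myl9. The promoters of Tpm2 and Vtn in that table held no match, which says only that these letters are not in those windows. No promoter sequence of Myh11 was available there.

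Genes of the endothelial class followed Acta2 to unequal degrees. Over 30 mice the correlation with Acta2 was 0.718 for Vwf, 0.613 for Ramp2, 0.605 for Itm2a and 0.558 for Esam. Without the 3 mice of highest Acta2 these became 0.477, 0.445, 0.373 and 0.219. Vwf also followed Myh11 (r = 0.775, and 0.600 without those 3 mice), at 0.770 within resistant and 0.781 within responder mice. The pericyte genes Rgs5, Higd1b and Notch3 had correlations with Acta2 of 0.0532, 0.0403 and 0.0285, and Pdgfrb had -0.308. These are descriptions and carry no test.

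**Figure D4:**
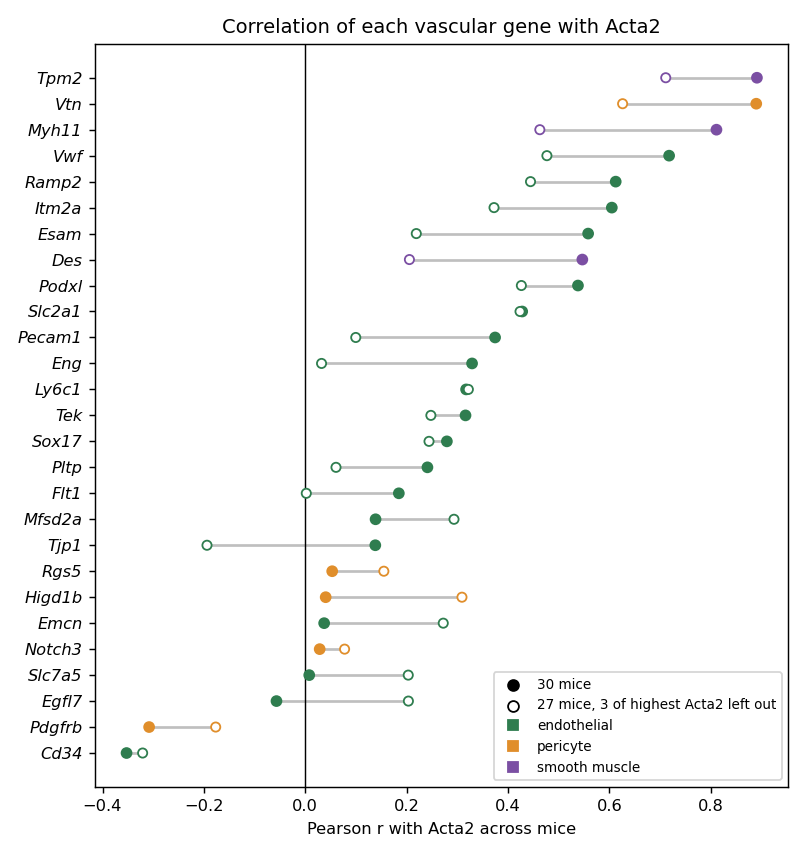
Pearson correlation with Acta2 for each of the other 27 genes (brightest kept probe per gene), group means removed. Filled points are over all 30 mice and open points over the 27 mice left without the 3 of highest Acta2. Tpm2 (0.891 and 0.711) and Vtn (0.890 and 0.626) lead in both, Myh11 (0.811 and 0.463) is next over 30 mice and Vwf (0.718 and 0.477) next over 27, and Pdgfrb (-0.308 and -0.177) lies below 0 in both.

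The class as a whole was loosely coordinated. Across the 171 endothelial pairs the median r was 0.151, with 4.68% of pairs over 0.5, while over all pairs of the 8841 genes the median was -0.0005 and 1.38% exceeded 0.5. The 171 pairs of an endothelial with a mural gene had a median of 0.142, with 12.3% over 0.5, so this level was not particular to the endothelial class. All 36 mural pairs had a median of 0.0407, with 22.2% over 0.5. Among them the 6 smooth muscle pairs had a median of 0.632 and the 10 pericyte pairs -0.0744. Without the 3 mice the smooth muscle median was 0.268, the endothelial median 0.0818 and the median between the 2 classes 0.139. The mural median was then 0.098. The shares over 0.5 were then 1.75% of endothelial pairs, 5.26% of pairs between the classes and 11.1% of mural pairs. The 1.38% over all genes was computed with those mice included.

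Of 12 pairs listed for testing, 5 had both genes detected. Besides Acta2 and Myh11, Flt1 and Rgs5 correlated across mice (r = 0.484, permutation p = 0.0101, adjusted 0.0251, and rho = 0.526, p = 0.00465, adjusted 0.0116), and at 0.504 without the 3 mice. It was r = 0.614 within resistant and r = 0.229 within responder mice, a difference that did not pass a permutation test (p = 0.13), and 0.445 without the 2 mice farthest from the Flt1 median. Pdgfrb did not correlate past the threshold with Rgs5 (r = -0.102), Notch3 (r = -0.326, p = 0.0857) or Pecam1 (r = 0.0981).

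Markers of fibroblasts, which line the meninges and larger vessels, moved with several of these genes. The mean of 17 detected fibroblast genes of 25 listed ranged from 6.90 to 8.56 in resistant and from 7.03 to 8.92 in responder mice. Over 30 mice its Pearson correlation passed an adjusted permutation p of 0.05 with 9 of the 28 genes, and the rank correlation also passed for 6 of these. Those 6 were Vtn (r = 0.859), Tpm2 (0.759), Itm2a (0.743), Acta2 (0.695), Pltp (0.680) and Ramp2 (0.596), while Myh11 (r = 0.584, rho = 0.372), Vwf (0.582, rho = 0.486) and Esam (0.493, rho = 0.429) passed by Pearson correlation only. The 3 mice of highest Acta2, which also have the highest fibroblast means, set the size of several of these values. Without them 3 of the 9 still passed, at r = 0.771 for Vtn, 0.713 for Pltp and 0.639 for Itm2a. The other 6 did not, at 0.521 for Tpm2, 0.445 for Ramp2, 0.352 for Acta2, 0.329 for Vwf, 0.261 for Esam and 0.186 for Myh11. Emcn passed over those 27 mice (r = 0.609, adjusted permutation p = 0.0161) and not over all 30 (r = 0.385, adjusted permutation p = 0.126). Over 30 mice, none of the 56 relations differed between resistant and responder mice past the threshold (smallest adjusted p = 0.959). With the fibroblast mean removed from each gene, the smooth muscle pairs had a median r of 0.447. The part of attached meninges in the smooth muscle correlations was not tested beyond this.

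**Figure D5:**
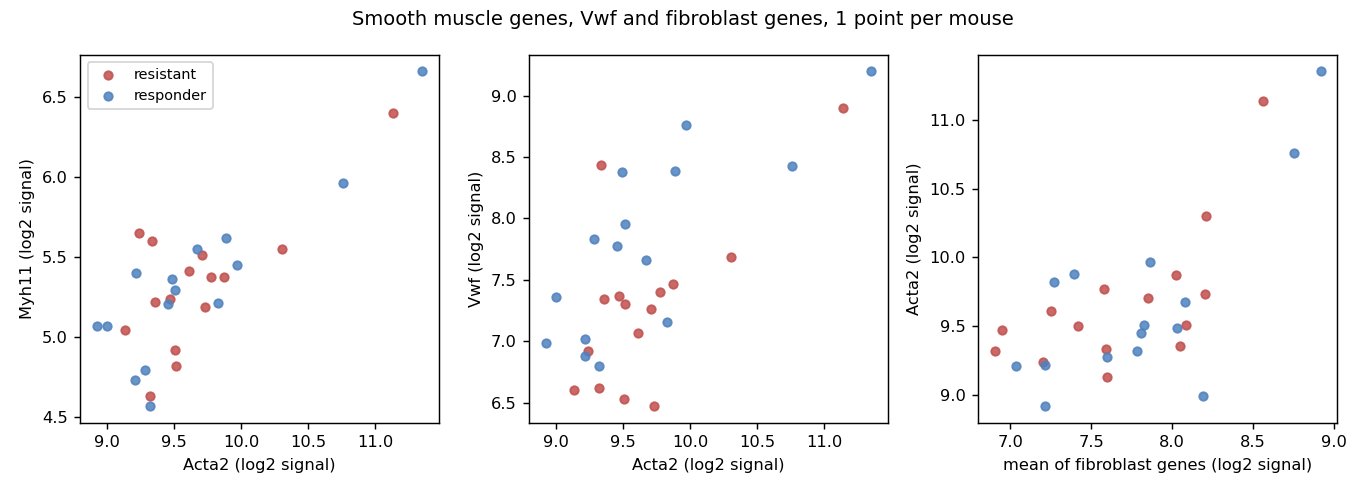
Log2 signals of single mice, resistant and responder marked apart, for Acta2 against Myh11, Acta2 against Vwf, and the mean of 17 fibroblast genes against Acta2. The 3 mice of highest Acta2 (11.14 in a resistant mouse, 10.76 and 11.35 in responders) lie at the upper right of the Myh11 and fibroblast panels.

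The genes around these markers were read from 6 lists of 173 genes, of which 100 were detected. At an unadjusted p under 0.05, 7 were higher and 2 lower in resistant mice (7.0% and 2.0% of the 100, against 4.48% and 3.13% of all genes), and none passed adjustment. The largest was Sox18, which with Sox7 and Sox17 makes up the SoxF transcription factors of endothelium. Sox18 had a lowest value of 6.74, a median of 7.36 and a highest value of 7.62 in resistant mice, against 6.69, 6.92 and 7.63 in responders.

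The ranges of Sox18 overlapped almost fully, yet 14 of 15 resistant mice lay above the responder median. Its log2 difference was 0.33 (SE 0.09, 1.26-fold, p = 0.00048, limma adjusted p = 0.31), and its adjusted p ran from 0.147 to 0.768 over the alternative settings. Sox7, detected on 16 arrays, differed by 0.31 (SE 0.10, p = 0.00564, limma adjusted p = 0.467). The filter asked for 15 arrays, and whether Sox7 passed it mainly through resistant mice was not tested. In the authors' processed values, which have no background correction, the differences were 0.18 for Sox18 and 0.095 for Sox7.

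Of the 16 detected genes of VEGF, angiopoietin and PDGF signalling, the endothelial Notch receptor Notch4 was higher at the unadjusted threshold (0.14, p = 0.00987, limma adjusted p = 0.532), while Vegfa had 0.15 (p = 0.0585) and Pdgfb 0.13 (p = 0.0927). Among 25 other endothelial genes, Cldn12 was higher (0.12, p = 0.0439), and the flow-induced factor Klf2 (-0.31, p = 0.00915) and the leukocyte adhesion molecule Icam1 (-0.28, p = 0.045) were lower at the unadjusted threshold. Among 21 other mural genes, 3 were higher at that threshold. They were the potassium channel subunit Abcc9 (0.24, p = 0.0193), Art3 (0.21, p = 0.035) and the forkhead factor Foxs1 (0.23, p = 0.0471). These 3 were dim, detected on 15, 19 and 22 of the 30 arrays, and signal near background limits their precision. Whether they passed the filter of 15 arrays mainly through resistant mice was not tested.

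None of the 11 detected basement membrane genes or the 12 further barrier transporters passed the unadjusted threshold. Closest were Col4a2, a collagen IV chain, at 0.13 (p = 0.0504), and the amino acid transporter Slc38a5, at -0.29 (p = 0.0659).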

How the data were processed

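Per the labels' protocols, RNA of snap-frozen hippocampi was column-purified and 200 ng per mouse was made into biotinylated cRNA. The R package lumi is named in the submitters' processing notes, and neither its version nor its use is given there. For 25697 probes, the authors deposited log2 signals without normalisation, detection p-values, and processed log2 values that matched a quantile normalisation of the former to within 6e-09.

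The unprocessed signals were background-corrected and quantile-normalised with neqc (offset 16) in limma 3.58.1 (R 4.3.3). Probes with a detection p under 0.05 on at least 15 arrays were kept (12588), and each gene was represented by its brightest kept probe. All 30 arrays entered lmFit and eBayes with an intensity trend, without covariates, and Benjamini-Hochberg adjustment ran over all kept probes. Differences are resistant minus responder on the log2 scale. Nothing in the labels says that animals were related or shared a day, so p-values measure the spread between these mice, and the number of arrays limits the precision. Signals of different probes carry different affinities, so levels were compared only within a probe or within the mean of a fixed set of probes.

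Correlations used group-centred values, with two-sided permutation tests (100000 resamples). The fit was tested on simulated data. The members, gene lists and pairs were chosen with earlier results of these data known. The text names all members and up to 3 genes of smallest p from each list. It gives both groups' values for Pecam1, Pdgfrb, paired genes and the 6 member probes of smallest p in each direction. Of these, the dimmer probes of Pltp and Pecam1 and the dimmest of Egfl7 are given by their differences only. The choice of Acta2 in the promoter search, the looser box and the 3 mice left out came after the data were seen. Gene names came from the platform annotation (1 gene for 23978 probes, several for 0, none for 1719), matched to RefSeq of GRCm38.p6.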

Additional observations from a re-analysis of the deposited data

How the results depend on the processing

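Alternatives to the processing changed no adjusted call. No member probe passed an adjusted p of 0.05 in any of them, with a lowest adjusted p of 0.36. The median difference of the endothelial genes ran from -0.014 to 0.039 and that of the mural genes from -0.023 to 0.073, and median scaling moved the median of all probes to 0.032. The count of member genes lower at an unadjusted p under 0.05 (3) was 5 without a filter, 1 under median scaling, 0 within sample numbers 17 to 30 and 0 after adjustment for the choroid plexus mean. The count higher (1) was 0 with the choroid plexus covariate. The count of pathway genes higher (7) was 4 when every array had to show a detection p under 0.01, 13 with the fibroblast covariate, 3 within sample numbers 1 to 16 and 12 without the 3 mice of highest Acta2. The count lower (2) was 1 under median scaling and with either covariate, 4 with no filter, 4 with the replicate number as a block and 5 within sample numbers 17 to 30. With that replicate block the member counts stayed at 1 and 3. Same-numbered mice had a median correlation of 0.114 (8 of 15 pairs over 0.1), against -0.0177 for differently numbered mice. Of the 30 mice, 5 correlated best with the mouse of their own number. The labels name no pairs, and the main fit did not take the numbers as pairs. What same-numbered mice may share was not tested. The correlation of Acta2 with Myh11 ran from 0.463 to 0.824, and that of Flt1 with Rgs5 from 0.477 to 0.556.

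Of the 36 member probes, 19 changed sign in at least 1 of 14 settings, and the cause was not tested. Without background correction and in the authors' processed values Ly6c1 was -0.0020. Median scaling gave Itm2a 0.026, Egfl7 0.023, Myh11 1.7e-05 and Tpm2 0.00067. Array weights gave Ly6c1 -0.013, Ramp2 -0.0022 and Acta2 -0.020. The choroid plexus covariate gave Itm2a 0.017, Ly6c1 -0.033, Egfl7 -0.0084 and 0.019 (2 probes) and Tpm2 0.030. The fibroblast covariate gave Itm2a 0.026, Vtn 0.00033, Acta2 0.016, Myh11 0.051 and Tpm2 0.067. Sample numbers 1 to 16 gave Esam -0.014, Itm2a 0.020, Ly6c1 -0.065, Tjp1 -0.033, Ramp2 -0.0096, Tek 0.037 and Myh11 0.045. Sample numbers 17 to 30 gave Pecam1 -0.079, Egfl7 -0.031, -0.036 and 0.10 (3 probes), Slc7a5 -0.015, Notch3 -0.033, Pdgfrb -0.16, Acta2 0.013 and Tpm2 -0.14 and 0.11. Leaving out the 3 mice gave Itm2a 0.015, Ly6c1 -0.00025, Acta2 0.061, Myh11 0.073 and Tpm2 0.11. Probes of Des, Sox17, Myh11, Pdgfrb and Notch3, 1 of Egfl7 (22 arrays) and 1 of Pecam1 (29 arrays) were detected on fewer than 30 arrays. Signal near background limits their precision.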

Other observations

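Markers of other cells in the tissue gave these values beside the vascular genes. Of 4 detected blood genes, none passed an unadjusted p of 0.05, and their mean was 8.71 ± 0.55 in resistant mice and 8.69 ± 0.46 in responders (SD, n = 15 each). Of 10 microglia and macrophage genes and 11 astrocyte genes, none passed. Of 8 oligodendrocyte genes Ugt8a, an enzyme of myelin lipid synthesis, was higher (0.38, p = 0.00072, limma adjusted p = 0.31). Of 7 neuronal genes the tubulin Tubb3, detected on 16 arrays, was higher (0.23, p = 0.0407), and its detection by group was not tested. Of 7 ependymal genes the ciliary Tekt1 was lower at that threshold.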
